A study of Homo sapiens with 2 samples.

Results

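The genes of the actin and tubulin cytoskeleton were compared between DUSP5 knock-down and vector control cells of L-428, an established Hodgkin's lymphoma (HL) cell line. A list of 49 genes was set by name, with earlier results of these data known. It held actins, the factors that nucleate, sever and cap filaments, filament crosslinkers and membrane linkers, myosins and tropomyosins, tubulins with stathmin, and vimentin. A probe set was taken for a gene only where that gene was its sole symbol in the platform annotation. On this rule 44 of the 49 genes had 82 probe sets, besides 3 control probe sets for ACTB. ACTG1, the cytoplasmic gamma actin, shares all of its 8 probe sets with ACTB and was left out, and ACTR2, CFL2, FLNA and TPM3 were not analysed here. A gene was treated as measured when a probe set had a mean signal of at least 200 over both arrays, and 40 of the 44 genes, with 66 probe sets, met this, of 6301 measured genes in all.

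The knock-down cells had been transfected with pcDNA6.2-GW/EmGFP-miR-DUSP5, a vector from which RNA polymerase II transcribes an artificial microRNA against DUSP5 together with the green fluorescent protein EmGFP. The control cells carried pcDNA6.2-GW/EmGFP-miR-neg, the same backbone as a negative control, described as well as empty, so EmGFP and the transfection were common to both groups. DUSP5 is a nuclear phosphatase that removes phosphate from the MAP kinase ERK. Each group was 1 hybridisation on an Affymetrix human genome array, so no p-value or replicate error exists for any comparison, and differences between these 2 cultures cannot be told apart from an effect of the knock-down. The signal of DUSP5 was 368 in knock-down cells and 628 in control cells, so that 58.6% remained at a log2 ratio of -0.77. A deficit of at least 1.5-fold was seen in 19.0% of all measured genes, so this value alone does not establish the knock-down.

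Actin monomers assemble into filaments that the Arp2/3 complex branches and formins elongate, while profilin, thymosins and cofilin set the pool of monomers and capping proteins close filament ends. Crosslinkers bundle the filaments and the ezrin, radixin and moesin proteins tie them to the plasma membrane. Microtubules are built from pairs of alpha and beta tubulin, and in lymphoid cells both systems shape the cell surface, migration and division.

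The only error that could be measured was that between probe sets of the same gene. The SD of a log2 ratio, taken from pairs of probe sets of 1 gene, was 0.26 at mean signals of at least 3000, 0.30 at 1000 to 3000, 0.36 at 500 to 1000 and 0.41 at 200 to 500. It was 0.73 at 100 to 200 and 1.19 under 100, and values there are given as dim. This SD covers probe error and not the spread between cultures. A gene is called higher or lower below when its brightest probe set differed by at least 1.5-fold between the arrays, a description of these 2 arrays. The median signal over all probe sets was 164 in knock-down and 161 in control cells, and the ACTB 3' to 5' ratio, a measure of RNA integrity, was 0.958 in knock-down and 1.03 in control cells.

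The identity of the cells was checked on lists of markers. The summed signal of all 8 Hodgkin cell markers was 28422 in knock-down and 23300 in control cells, and 7 of the 8 were measured. Of the 7, 5 were above 0 on the log2 scale and 2 below, from TNFRSF8, the gene of CD30, with 3618 in knock-down and 1724 in control cells, to CD83, a surface protein of activated cells, with 2529 in knock-down and 3713 in control cells. BATF3 was the other one below 0. PAX5 was the only B cell marker measured, with 211 in knock-down and 268 in control cells, and none of the 5 T cell markers reached the filter, with a sum of 434 in knock-down and 241 in control cells. The 5 stromal markers summed to 589 in knock-down and 547 in control cells, and the 5 epithelial markers to 394 in knock-down and 803 in control cells, and CDH1, the gene of E-cadherin, had 55.3 in knock-down and 467 in control cells. Without CDH1 the other 4 epithelial markers summed to 339 in knock-down and 337 in control cells. The part of these markers in the cytoskeletal values was not tested. In bulk RNA a change in the number of cells of a type and a change in the RNA of each cell cannot be told apart.

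Most cytoskeletal genes had higher signals in the knock-down cells. Of the 40 measured genes 34 had a log2 ratio above 0 and 6 below, and the median was 0.45, against 0.01 over all measured genes, of which 50.4% were above 0. At 1.5-fold, 16 of the 40 (40.0%) were higher, against 15.6% of all measured genes, and 2 (5.0%), ACTA2 and PFN2, were lower, against 19.0% of all. At 2-fold, 8 were higher and 1 lower, against 4.38% higher and 7.3% lower over all measured genes. Over single probe sets 57 of the 66 measured were above 0, and 26 were at least 1.5-fold higher and 2 lower. No like count was made over all probe sets, and a gene can hold several. The probe set count therefore adds nothing to the count of genes.

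**Figure D1:**
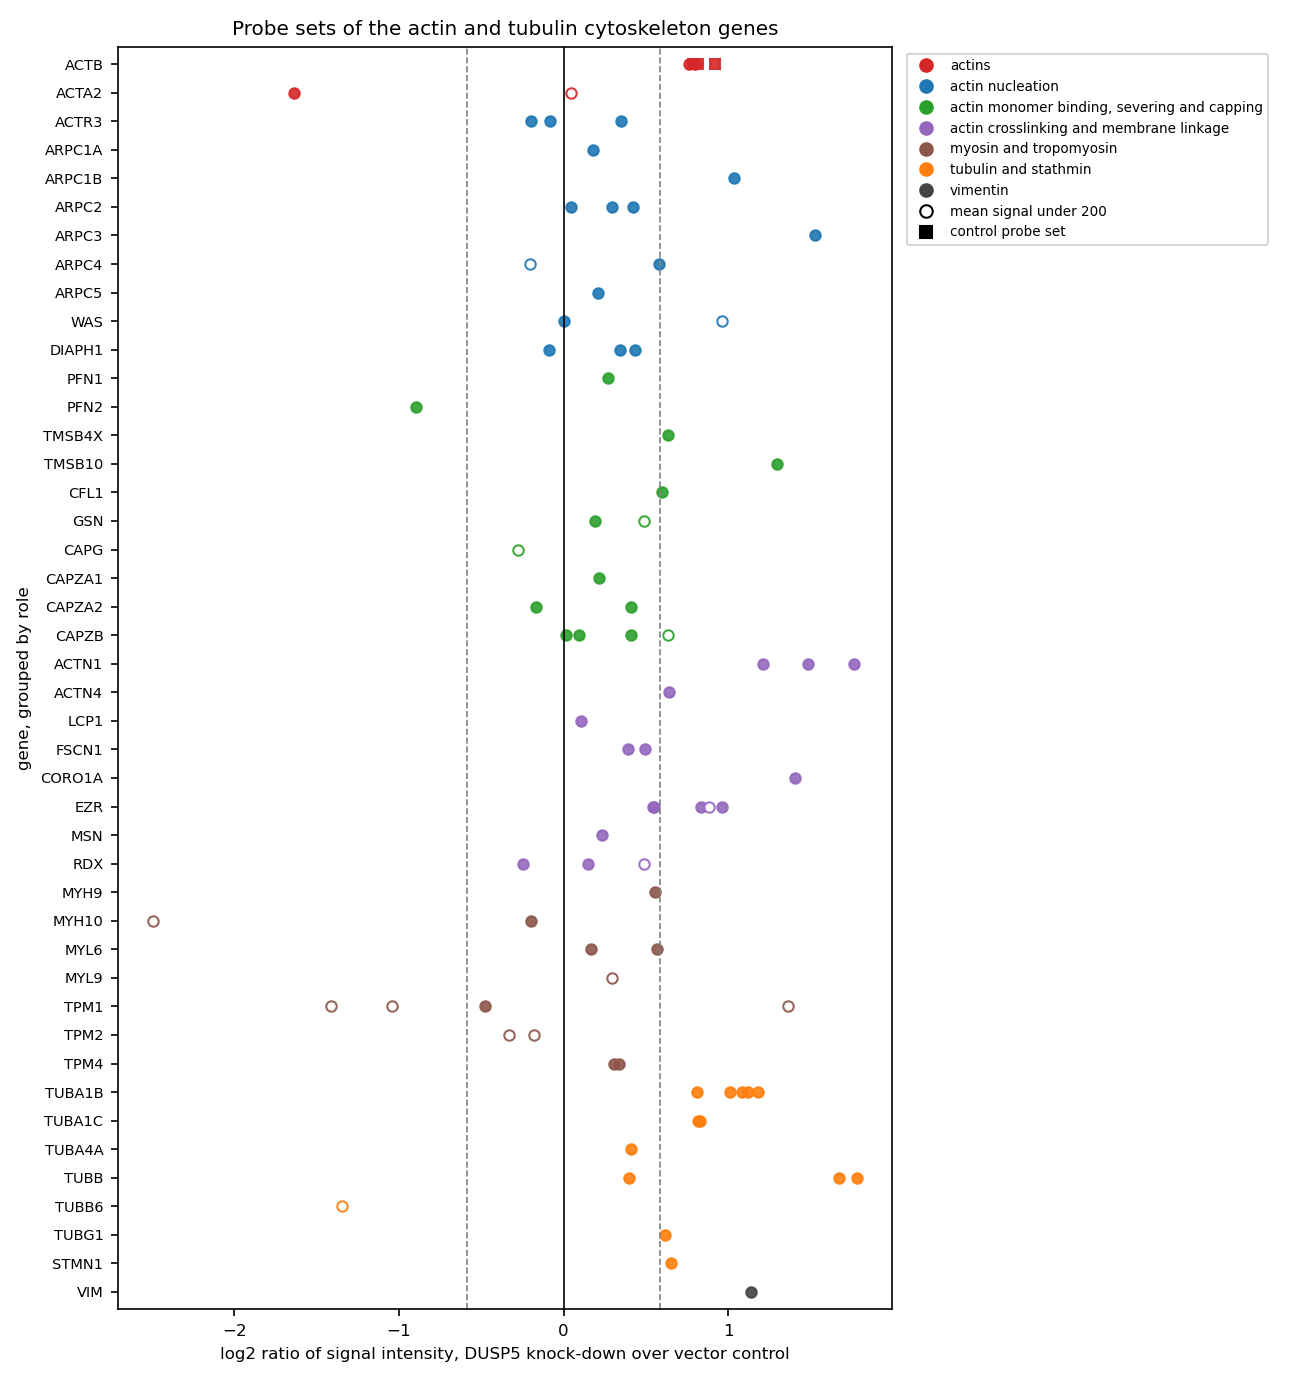
Log2 ratio of knock-down over control signal (horizontal axis) of the cytoskeletal probe sets, with genes grouped by role down the page, open circles for mean signals under 200, squares for the ACTB control probe sets and dashed lines at 1.5-fold. The measured tubulin genes and vimentin lie to the right of 0, and ACTA2 at -1.64 and PFN2 at -0.89 lie farthest to the left among measured genes.

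Bright genes as a whole were shifted on these arrays, and the cytoskeletal genes are bright. Their median mean signal was 2411, against 708 over all measured genes, and 18 of the 40 (45.0%) reached 3000, against 10.6% of all. The 200 brightest genes outside the list had a median log2 ratio of 0.42. Genes whose mean signal reached 3000 were called higher in 24.1% and lower in 8.85% of cases, and the cytoskeletal genes of that brightness in 9 of 18 and 0 of 18. Below 3000, 7 of 22 cytoskeletal genes were higher and 2 lower, against 14.6% higher and 20.2% lower over all genes of that brightness.

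Each log2 ratio was therefore also taken relative to the median of the 200 genes nearest in mean signal. For 6 cytoskeletal genes, ACTB, CFL1, TMSB4X, TUBA1B, TUBA1C and VIM, these were simply the 200 brightest genes outside the list. The mean signals of those 200 ran from 6149 to 32411 and most were below those of the 6 genes, so the match was poorer there. On this relative scale the median of the cytoskeletal genes was 0.32, 13 of 40 (32.5%) were higher and 2 (5.0%) lower, against 15.0% higher and 18.7% lower over all measured genes. ACTB, CFL1, TMSB4X and TUBA1C lost their call on the relative scale and ARPC4 gained one, and 12 genes were higher on both. By signal, the median log2 ratio of the cytoskeletal genes against all other genes was 0.30 against 0.01 at 200 to 500, 0.34 against -0.04 at 500 to 1000, 0.48 against -0.04 at 1000 to 3000, 0.23 against 0.14 at 3000 to 10000 and 0.79 against 0.45 from 10000 up. The cytoskeletal median was thus the larger in each of these ranges.

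**Figure D2:**
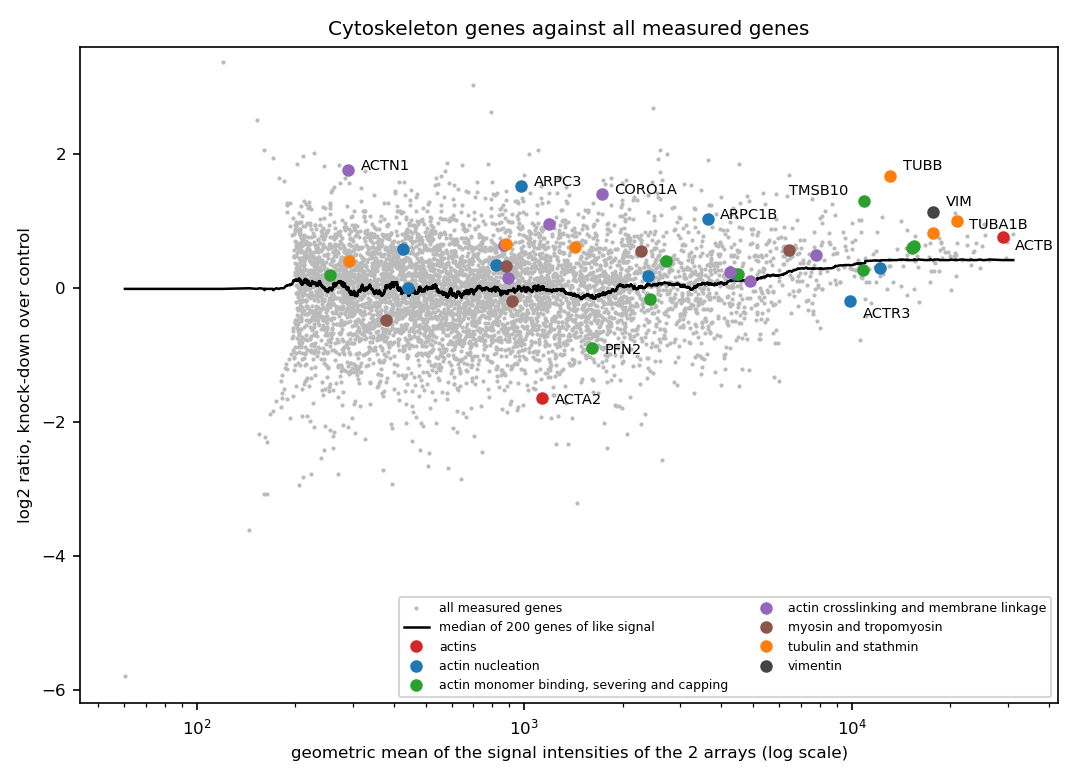
Log2 ratio of knock-down over control (vertical axis) against the geometric mean signal of both arrays (log axis) for all measured genes, with the cytoskeletal genes marked and a line for the median of genes of like signal. The line climbs to 0.42 among the brightest genes, and ACTN1, ARPC3, CORO1A and TUBB stand well above it.

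Promoter sequence was examined because many cytoskeletal genes are known targets of serum response factor (SRF), which binds the CArG box and is tied to actin by its coactivator MRTF, which actin monomers hold back, and to ERK by the ternary complex factors. Windows from 250 bases before to 50 after each RefSeq start site (GRCh38.p14) were found for 44 of the 49 genes, 73 windows in all. PFN2, MYL9, ACTB, ARPC1B and FSCN1 were not in the table of windows used here. A CArG box stood on either strand in 4 of the 73 windows (5.48%), those of ACTN1, ACTG1, TPM4 and FLNA, against 1.29% of 35116 windows of the whole table. With 1 of the 6 inner bases left free, 11 windows (15.1%) of 10 genes held it, against 8.13% of all. The windows below are those of ACTN1 and TPM4, which hold a full CArG box and are measured here, and of ACTA2, which holds the looser form 2 times and had the largest deficit of the list. Capitals mark the box, and positions are counted with the start site at 0.
ACTN1: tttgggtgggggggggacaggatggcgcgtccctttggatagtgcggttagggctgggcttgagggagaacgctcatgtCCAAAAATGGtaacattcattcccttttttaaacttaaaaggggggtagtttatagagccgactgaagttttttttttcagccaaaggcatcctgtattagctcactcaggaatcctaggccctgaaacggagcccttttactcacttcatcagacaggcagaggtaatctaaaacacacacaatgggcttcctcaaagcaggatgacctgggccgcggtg
TPM4: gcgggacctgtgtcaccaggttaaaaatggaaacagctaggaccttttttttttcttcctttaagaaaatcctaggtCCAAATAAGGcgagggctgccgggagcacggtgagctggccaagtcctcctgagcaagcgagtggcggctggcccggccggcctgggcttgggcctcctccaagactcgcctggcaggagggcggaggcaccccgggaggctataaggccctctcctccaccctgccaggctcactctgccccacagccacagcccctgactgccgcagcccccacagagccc
ACTA2: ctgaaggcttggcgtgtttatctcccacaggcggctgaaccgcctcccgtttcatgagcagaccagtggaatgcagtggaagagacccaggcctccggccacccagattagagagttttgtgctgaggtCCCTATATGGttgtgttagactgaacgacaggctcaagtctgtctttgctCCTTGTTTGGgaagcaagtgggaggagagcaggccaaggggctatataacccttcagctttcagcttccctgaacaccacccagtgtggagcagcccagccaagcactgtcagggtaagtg
The ACTN1 window is chr14:68977517-68977816 on the minus strand, 1 of 4 for that gene, with the box from -171 to -162. The TPM4 window is chr19:16067288-16067587 on the plus strand, 1 of 3, with the box from -173 to -164. The ACTA2 window is chr10:88952724-88953023 on the minus strand, 1 of 2, with boxes from -121 to -112 and from -71 to -62. These 3 genes had log2 ratios of 1.76, 0.34 and -1.64 in this order. A match of letters is a description and does not show that the factor binds.

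The actins differed in direction. ACTB, the cytoplasmic beta actin of all cells, had signals of 37726 in knock-down and 22250 in control cells, a log2 ratio of 0.76, and its other probe set gave 36145 in knock-down and 20739 in control cells. The 3 ACTB control probe sets of the array gave log2 ratios of 0.82 at the 3' end, 0.79 in the middle and 0.92 at the 5' end. All 5 probe sets of ACTB were thus higher in knock-down cells, and on the relative scale the gene was at 0.34, with 29 of its 200 neighbours in signal at least as high. ACTA2, the actin of smooth muscle and myofibroblasts, had 642 in knock-down and 1998 in control cells, 32.2% of control and a log2 ratio of -1.64. Only 2 of the 200 genes nearest to it in signal were as low. A second ACTA2 probe set was dim on both arrays, with 87.4 in knock-down and 84.5 in control cells, and did not show the difference.

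**Figure D3:**
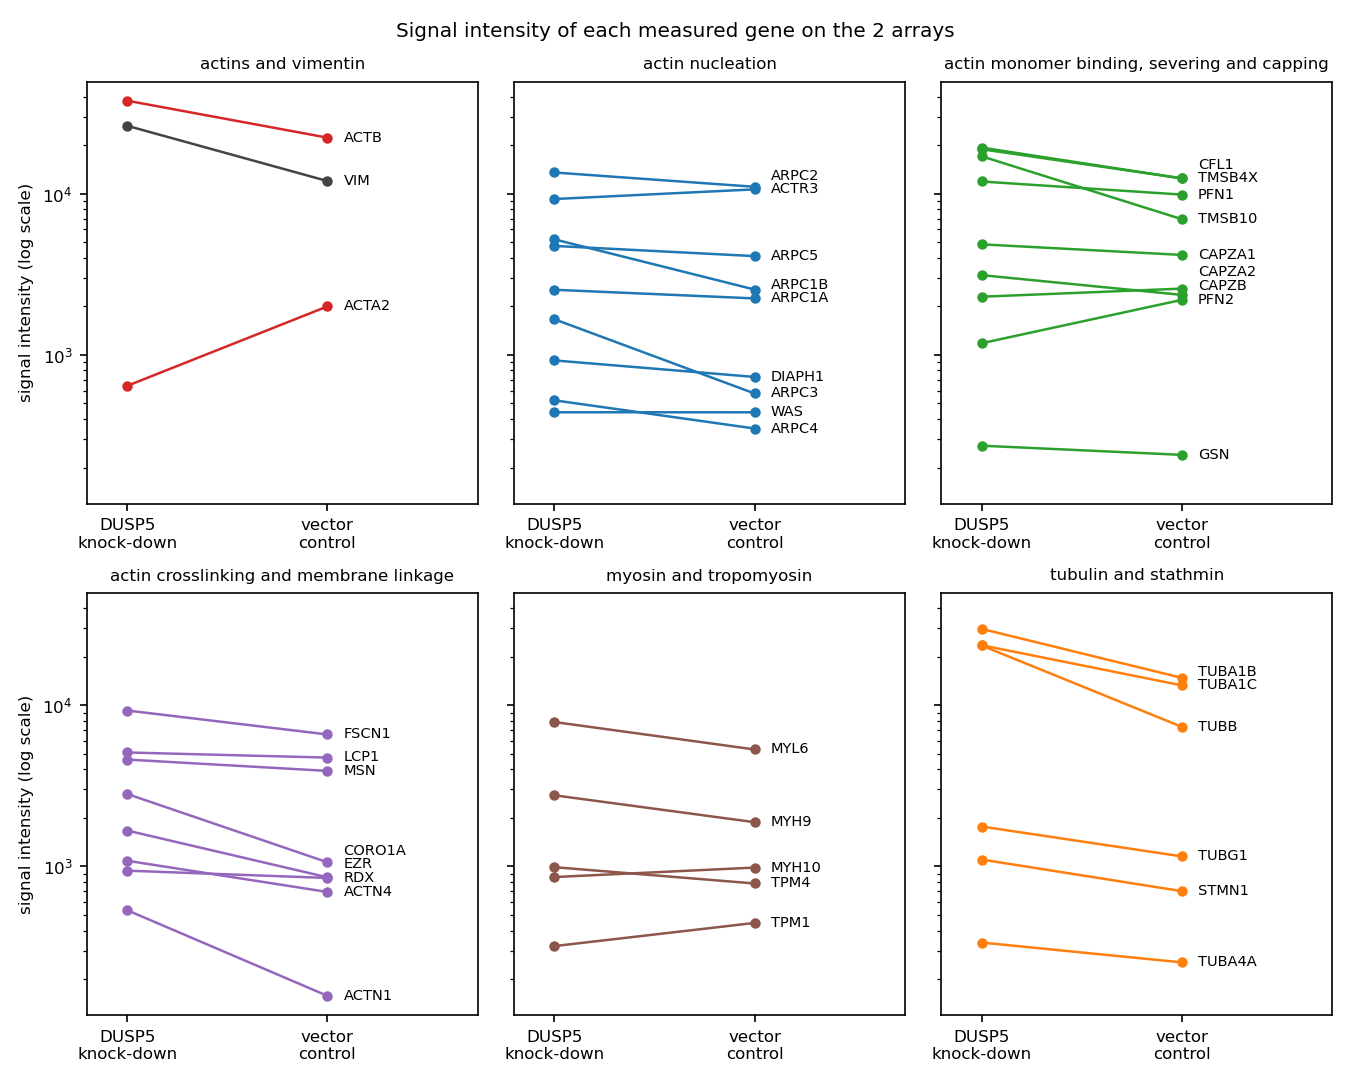
Signal of the brightest probe set of cytoskeletal genes (log axis), in panels by role, on the knock-down array, left, and the control array, right, joined by a line for each gene. ACTB had 37726 in knock-down and 22250 in control cells, and ACTA2 had 642 in knock-down and 1998 in control cells.

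Within the Arp2/3 complex, which starts a new actin branch on an existing filament, the subunits differed from each other. ARPC3, a small subunit of the complex, had 1663 in knock-down and 576 in control cells, a log2 ratio of 1.53 that was matched by 1 of its 200 neighbours. ARPC1B, the WD-repeat subunit that predominates in blood cells, had 5207 in knock-down and 2541 in control cells, a log2 ratio of 1.03. Its paralogue ARPC1A had 2534 in knock-down and 2240 in control cells, a log2 ratio of 0.18. The 2 forms of this subunit differed by 0.86, against a combined SD of 0.40.

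The other subunits stayed within 1.5-fold. ARPC4, which holds the complex together with ARPC2, had 523 in knock-down and 349 in control cells, a log2 ratio of 0.58 just under the limit of 1.5-fold. ARPC5 had a log2 ratio of 0.21. ARPC2 gave 0.29, 0.04 and 0.42 from its 3 probe sets, and since the genes nearest in signal were higher themselves it was at -0.11 on the relative scale. ACTR3, which with ACTR2 imitates the barbed end of a filament, gave -0.20, 0.35 and -0.08, so its sign depended on the probe set, and its brightest one was at -0.54 on the relative scale. WAS, the blood cell activator of the complex, had equal signals of 440 in knock-down and 440 in control cells. DIAPH1, a formin that elongates unbranched filaments, gave 0.34, -0.09 and 0.43. In all, 2 of the 9 measured nucleation genes were higher, ARPC3 and ARPC1B, and none was lower. Over all measured genes 15.6% were higher and 19.0% lower, so a count of 2 in so few genes is close to that share.

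Among the genes that bind monomers, sever or cap actin, both thymosins and cofilin were higher. TMSB10, the thymosin beta that sequesters actin monomers, had 17060 in knock-down and 6945 in control cells, 246% of control and a log2 ratio of 1.30. TMSB4X, the more widespread thymosin, had 19308 in knock-down and 12433 in control cells, a log2 ratio of 0.64. CFL1, the cofilin that severs aged filaments, had 18874 in knock-down and 12441 in control cells, a log2 ratio of 0.60. Only TMSB10 kept its call relative to genes of like signal, at 0.93, while TMSB4X was at 0.22 and CFL1 at 0.18.

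The profilins, which feed actin monomers to growing ends, differed from each other. PFN2, the form best known from neurons, had 1180 in knock-down and 2193 in control cells, 53.8% of control and a log2 ratio of -0.89, and 14 of its 200 neighbours were as low. PFN1, the form of most cells, had 11895 in knock-down and 9865 in control cells, a log2 ratio of 0.27. The difference between them was -1.16, against a combined SD of 0.40, and -0.66 on the relative scale, where PFN1 was at -0.10. The capping protein genes, whose products form a heterodimer at the barbed end, stayed within 1.5-fold, with log2 ratios of 0.22 for CAPZA1, -0.17 for CAPZA2 and 0.41 for CAPZB. A second CAPZA2 probe set gave 0.41, the opposite sign, and the other measured CAPZB probe sets 0.09 and 0.02. GSN, the severing protein gelsolin, was at 0.19, and CAPG, a related capping protein, was dim with 105 in knock-down and 127 in control cells.

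The crosslinkers held the largest log2 ratio by the brightest probe set of each gene. ACTN1, the alpha-actinin of stress fibres and focal adhesions, had 535 in knock-down and 157 in control cells, 340% of control and a log2 ratio of 1.76. Its other 2 probe sets gave 495 in knock-down and 177 in control cells, and 289 in knock-down and 125 in control cells, log2 ratios of 1.49 and 1.21. None of the 200 genes nearest to ACTN1 in signal was as high, and its control signals were all under 200, where the error is largest. ACTN4, the other non-muscle alpha-actinin, had 1083 in knock-down and 694 in control cells, a log2 ratio of 0.64, so the 2 actinins differed by 1.12 against a combined SD of 0.55.

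CORO1A, the coronin of blood cells that binds filaments and the Arp2/3 complex, had 2813 in knock-down and 1060 in control cells, a log2 ratio of 1.41, and 2 of its 200 neighbours were as high. EZR, ezrin, had 1668 in knock-down and 855 in control cells, a log2 ratio of 0.96, and the other 3 measured probe sets gave 0.55, 0.84 and 0.55. All measured probe sets of ezrin thus had the same sign. Its relatives MSN, the moesin that predominates in lymphocytes, and RDX, radixin, were at 0.23 and 0.15, and a second radixin probe set gave -0.25. Ezrin exceeded moesin by 0.73 with a combined SD of 0.40 and radixin by 0.81 with a combined SD of 0.47. LCP1, the plastin of blood cells, was at 0.11, and FSCN1, fascin, a bundling protein long used as a stain for the tumour cells of HL, was at 0.49 and 0.39 from 2 probe sets. In all, 4 of the 8 measured genes, ACTN1, ACTN4, CORO1A and EZR, were higher on both scales and none was lower. Over all measured genes 15.6% were higher as deposited and 15.0% on the relative scale.

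None of the 5 measured myosin and tropomyosin genes was called. Over all measured genes 15.6% were higher and 19.0% lower, and 5 genes are too few to be set apart from those shares. MYH9, the heavy chain of non-muscle myosin IIA, had 2759 in knock-down and 1879 in control cells, and MYL6, its essential light chain, had 7857 in knock-down and 5310 in control cells, with log2 ratios of 0.55 and 0.57 just under the limit. A second MYL6 probe set gave 0.16. MYH10, the heavy chain of myosin IIB, was at -0.20, so that it was 0.75 below MYH9 with a combined SD of 0.47. The tropomyosins line the groove of the filament and govern the access of myosin. TPM4 gave 0.34 and 0.31, and TPM1 had 320 in knock-down and 446 in control cells, a log2 ratio of -0.48. Of the dim TPM1 probe sets 2 were lower as well, at -1.41 and -1.04, and 1 was higher, at 1.37, with signals of 17.3 in knock-down and 6.69 in control cells. MYL9 and TPM2 had no signal above 8 on either array. Further dim probe sets gave log2 ratios of -2.49 for MYH10, -0.20 for ARPC4, 0.96 for WAS, 0.49 for GSN, 0.63 for CAPZB, 0.88 for EZR and 0.49 for RDX, all at mean signals under 100, where the SD between probe sets was 1.19.

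Of the tubulins and stathmin 5 of 6 measured genes were higher, against 15.6% of all measured genes, with a median log2 ratio of 0.74. On the relative scale 4 of 6 were higher, against 15.0% of all. Without _s_at and _x_at probe sets only TUBB, TUBA4A and TUBG1 remained, with a median of 0.41, and of these TUBG1 alone was called. TUBA1B, TUBA1C and STMN1 had no probe set of another type, so TUBB was the gene that lost its call. TUBB, a major beta tubulin, had 23445 in knock-down and 7336 in control cells, 320% of control and a log2 ratio of 1.68, and a second probe set gave 1.78. Both are of the _x_at type, whose probes can also match other transcripts. The probe set of the _at type, whose probes are meant for the gene alone, gave 6343 in knock-down and 4817 in control cells, a log2 ratio of 0.40. The range of 1.39 between them was the widest of the 15 genes with 2 or more measured probe sets, for which the median range was 0.40.

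TUBA1B, the main alpha tubulin of dividing cells, had 29730 in knock-down and 14771 in control cells, and its 5 probe sets, all _x_at, gave log2 ratios from 0.81 to 1.18. After quantile normalization TUBA1B was at 0.42 and after subtraction of a lowess fit at 0.49, both under 1.5-fold. TUBA1C, a close copy of it, gave 0.83 and 0.82 from 2 _x_at probe sets. The alpha tubulins are so alike that their signals may be shared. TUBA4A, the alpha tubulin that is encoded with its terminal tyrosine missing, had 337 in knock-down and 254 in control cells, a log2 ratio of 0.41. TUBG1, the gamma tubulin that nucleates microtubules at the centrosome, had 1767 in knock-down and 1153 in control cells, a log2 ratio of 0.62. STMN1, stathmin, which binds tubulin dimers and favours disassembly, had 1103 in knock-down and 702 in control cells, a log2 ratio of 0.65. TUBB6 was dim, with 19.7 in knock-down cells and a log2 ratio of -1.34. Over the whole list 25.8% of measured probe sets were of the _x_at type, against 11.2% of all measured probe sets.

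VIM, vimentin, the intermediate filament of mesenchymal and many blood cells, had 26363 in knock-down and 11972 in control cells, a log2 ratio of 1.14, and 5 of its 200 neighbours in signal were as high. It was at 0.72 on the relative scale and at 0.66 after quantile normalization and after subtraction of a lowess fit.

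Closely related genes were set against each other in 13 pairs, chosen with these values known. No like count was made for pairs of unrelated genes, and the combined SD covers probe error alone. Over all measured genes 15.6% were higher and 19.0% lower, so unrelated genes differ too. The counts of pairs below therefore describe these pairs and do not set related genes apart from others. The log2 ratios of 4 pairs differed by more than 2 combined SDs, namely ARPC1B and ARPC1A, ACTN1 and ACTN4, PFN2 and PFN1, and ACTA2 and ACTB, the last by -2.40. On the relative scale 3 pairs did, with ARPC1B above ARPC1A by 0.84, EZR above MSN by 0.88 and ACTA2 minus ACTB at -1.97. ACTN1 minus ACTN4 was 1.05 and PFN2 minus PFN1 -0.66 on that scale. The EZR pair rests on the brightest EZR probe set, with a log2 ratio of 0.96, while its other measured probe sets gave 0.55, 0.84 and 0.55. In 3 pairs, CAPZA2 and CAPZA1, MSN and RDX, and TUBA1B and TUBA1C, the difference was less than 1 combined SD. TMSB10 exceeded TMSB4X by 0.66 with a combined SD of 0.37.

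**Figure D4:**
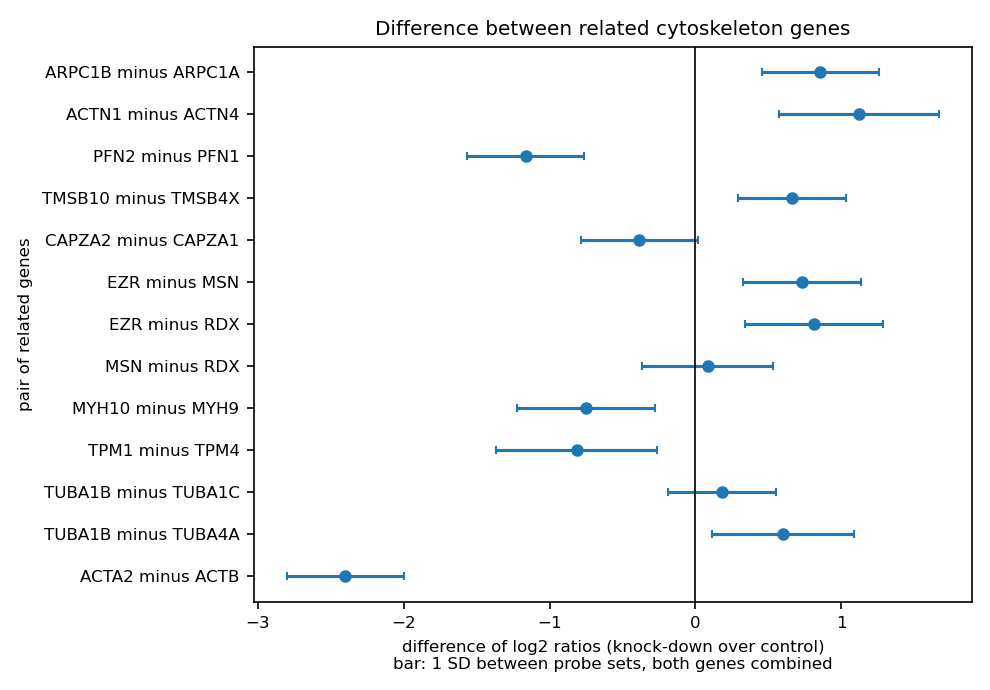
Difference of the log2 ratios of knock-down over control (horizontal axis) for 13 pairs of related cytoskeletal genes, with bars of 1 SD between probe sets, combined over both genes. ACTN1 minus ACTN4 lies at 1.12 and ARPC1B minus ARPC1A at 0.86, while PFN2 minus PFN1 lies at -1.16.

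The genes around the list were examined for the same pattern. Of 51 measured genes among 90 other actin regulators 13 (25.5%) were higher and 8 (15.7%) lower, with a median of -0.004. Over all measured genes 15.6% were higher and 19.0% lower, with a median of 0.01, so the median of this list was not raised. CTTN, cortactin, which stabilises branches, had 1097 in knock-down and 403 in control cells, and a second probe set gave a log2 ratio of 0.60. NF2, merlin, a relative of ezrin, had 961 in knock-down and 383 in control cells. MYO1D, a class I myosin, had the largest deficit with 79.5 in knock-down and 560 in control cells, and DAAM1, a formin, had 125 in knock-down and 412 in control cells. The knock-down signals of both were under 200, where the error is largest.

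Of 60 measured genes among 85 other tubulins and microtubule regulators 12 (20.0%) were higher and 7 (11.7%) lower, with a median of -0.01. The values over all measured genes were 15.6%, 19.0% and 0.01, so the median of this list was not raised either. TBCB, a cofactor that folds alpha tubulin, had 2284 in knock-down and 725 in control cells, and TUBB3, a beta tubulin best known from neurons, had 2251 in knock-down and 719 in control cells, both at a log2 ratio of 1.65. A second TUBB3 probe set gave 1.57, but both are of the _x_at type, whose probes can also match other transcripts. The TBCB value is from an _x_at probe set too, and its others gave 1.65 (_x_at) and 1.23 (_s_at). CLIP1 and CLASP1, which bind growing microtubule ends, were lower, at -1.40 and -1.29. The knock-down signal of CLIP1 was 148, in the range under 200 where the error is largest. The CCT ring, the chaperonin that folds actin and tubulin, was picked out after its values were seen. Of its 8 genes 7 were measured and 6 were higher, with a median log2 ratio of 0.76 and values from 0.19 for CCT6A to 1.11 for CCT3. Of all measured genes 15.6% were higher, and of those with a mean signal of at least 3000, 24.1%. The genes of dynein and dynactin, picked in the same way, had 14 measured, 0 higher and 1 lower, DYNLT3 at -1.07. Their median was -0.21, with values up to 0.55 for DCTN1. Over all measured genes 15.6% were higher and 19.0% lower, so calls of lower were not more frequent in this family.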

How the data were processed

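RNA of 1 DUSP5 knock-down and 1 vector control culture of L-428 cells was hybridised to Affymetrix human genome arrays. The deposited signal intensity values are linear and were made by the authors with MAS5 in Expression Console, scaled to a target of 500. They were used as given, and log2 ratios of knock-down over control were computed per probe set in Python 3.11.15 (numpy 2.4.6, pandas 2.3.3). Symbols were those of the platform annotation, and probe sets with several symbols were left out. A gene was represented by its probe set of highest mean signal, kept at a mean of at least 200, and called at 1.5-fold. The relative scale subtracts the median of the 200 genes nearest in mean signal, cytoskeletal genes excluded. No p-value was computed, since each condition had 1 array, and the number of arrays limits the precision. The calculation was tested on simulated data. The members, lists and pairs were chosen with earlier results of these data known. All listed genes with a probe set are accounted for. Genes outside the list were named by size, the 2 measured genes of highest and of lowest log2 ratio in each list, and a further list is not reported here. Alternatives were quantile normalization, median centring, a lowess fit, 32 added to each signal, other filters and folds, the mean of all probe sets, and leaving out _s_at and _x_at probe sets.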

Additional observations from a re-analysis of the deposited data

How the results depend on the processing

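No paired analysis was possible because knock-down and control had a lone array apiece. No direction of a group value reversed under any alternative run. As deposited, the median log2 ratio was 0.45 for the cytoskeletal genes, -0.44 for the actins, 0.29 for nucleation and 0.27 for monomer binding, severing and capping. It was 0.57 for crosslinking, 0.34 for myosin and tropomyosin and 0.74 for the tubulins. The actin value is the midpoint of ACTB and ACTA2, which had opposite signs, and describes neither gene. Subtracting a lowess fit moved the median log2 ratio of the cytoskeletal genes to 0.27, of the actins to -0.70, of nucleation to 0.15, of the monomer-binding, severing and capping genes to 0.16 and of the tubulins to 0.57. Quantile normalization moved them to 0.26, -0.75, 0.18, 0.10 and 0.57 in the same order. Both remove the shift of bright genes by construction, and under each 12 of 40 genes were higher, against 15.5% of all measured genes after lowess and 16.5% after quantile normalization. ACTB was at 0.17 after lowess and 0.06 after quantile normalization. At 2-fold 8 genes were higher and 1 lower, against 4.38% higher and 7.3% lower over all measured genes. The median of the cytoskeletal genes was 0.39 with the mean of all probe sets, 0.52 at a mean signal of at least 500 and 0.37 with no filter. Without _s_at and _x_at probe sets 23 genes remained, with a median of 0.35, 7 (30.4%) higher and 1 lower, against 14.5% higher and 21.3% lower over all genes. The medians there were 0.44 for crosslinking, 0.47 for nucleation, 0.16 for myosin and tropomyosin and 0.41 for the tubulins, while the actins had no value because ACTA2 alone was left. The higher genes were ACTN1, ACTN4, ARPC1B, ARPC3, CFL1, CORO1A and TUBG1. Without replicates no spread between cultures could be set against any of these values.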
